A study of Mus musculus with 6 samples.

Results

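The 9 genes described here encode potassium channel proteins of the heart: the inward rectifiers Kcnj2, Kcnj3 and Kcnj11, the voltage-gated channels Kcnd2, Kcnd3, Kcna5, Kcnq1 and Kcnh2, and Kcnip2, an auxiliary subunit. They were taken by gene symbol from a deposited table of 14798 genes, and all 9 were listed there and passed the filter on low counts. Each is a potassium channel gene; the pore-forming sodium channel genes of the heart were not analysed here. RNA came from the left ventricular scar of mice whose left anterior descending artery had been tied at 10 weeks of age and that were sampled 6 weeks later; their labelled age is 14 to 16 weeks. The control group comprised 3 libraries of genotype Sox9 fl/fl. The other group comprised 3 libraries of genotype Sox9 fl/perCre, in which a Cre written Per_cre deletes Sox9 in fibroblasts according to the series text; the labels do not give the promoter of this Cre or say how many Sox9 alleles were floxed in the second group. Both groups had the infarct, and neither uninjured tissue nor Cre without floxed alleles was among the samples. Whether the libraries of a genotype came from different animals is not labelled, so the spread between them may be technical.

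Potassium currents return the cardiac action potential to rest. Inward rectifiers hold the resting potential, the transient outward channels made of Kv4 subunits give the early, fast repolarization that is prominent in mouse ventricle, and delayed rectifiers complete repolarization. In cardiac disease, reduced transient outward and inward rectifier currents are a well-known feature of electrical remodelling. The Kv4 subunits reach full surface expression together with the calcium-binding protein KChIP2, and the ATP-sensitive channel needs a sulfonylurea receptor, so that pore and auxiliary genes are read together here.

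Total counts were between 18538171 and 55523974 per library. Every count in replicates 2 and 3 of both groups was an even number, against 49.9% and 49.3% of genes with even counts in control and deletion replicate 1. This split is called the batch below, although the labels name none, and the totals of replicates 2 and 3 may count both mates of a pair. Sox9 was at 71.1, 75.8 and 67.7 CPM (counts scaled to a common library size) in the controls and at 42.1, 51.7 and 55.8 CPM in the deletion scars (edgeR adjusted p = 0.564). CPM were scaled with trimmed-mean-of-M (TMM) factors. The sign ± marks the SD over 3 libraries of a genotype for a level and the standard error (SE) for a fold change, and every log2 difference is the deletion group less the controls.

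Promoter sequence is shown for 4 members because all 9 had a higher mean in deletion scars; their profiles over single libraries were not alike, Kcnip2 and Kcnd3 departing most from the mean profile. In 5 members the RefSeq transcription start (build GRCm38.p6, the assembly also called mm10) coincides with the deposited gene start, and the 4 shown are those with a motif match. Each line gives the 250 bases before that start in the direction of transcription. Capitals mark matches on either strand to the E-box motif CANNTG, the GATA-factor motif GATAA or the M-CAT motif CATTCC. A MEF2 motif, spelled CTA and TAG around 4 bases of any kind, was also searched. All are binding sequences of transcription factor families active in heart muscle.
Kcnj2, chr11:111065914-111066163, plus strand: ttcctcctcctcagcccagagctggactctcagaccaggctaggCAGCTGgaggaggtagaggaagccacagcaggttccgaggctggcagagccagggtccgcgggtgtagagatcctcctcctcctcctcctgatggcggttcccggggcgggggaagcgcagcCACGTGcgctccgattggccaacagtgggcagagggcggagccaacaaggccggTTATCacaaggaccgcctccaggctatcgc
Kcnj3, chr2:55435720-55435969, plus strand: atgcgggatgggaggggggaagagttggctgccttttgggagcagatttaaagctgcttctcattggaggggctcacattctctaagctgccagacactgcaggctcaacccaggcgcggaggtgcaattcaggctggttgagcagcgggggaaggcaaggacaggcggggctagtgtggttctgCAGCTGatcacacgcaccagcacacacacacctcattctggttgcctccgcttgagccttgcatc
Kcna5, chr6:126535556-126535805, minus strand: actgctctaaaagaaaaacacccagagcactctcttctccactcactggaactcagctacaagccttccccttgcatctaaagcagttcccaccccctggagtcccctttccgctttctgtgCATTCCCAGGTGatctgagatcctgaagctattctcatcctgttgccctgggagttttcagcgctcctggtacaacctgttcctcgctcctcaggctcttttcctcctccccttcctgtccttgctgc
Kcnip2, chr19:45816064-45816313, minus strand: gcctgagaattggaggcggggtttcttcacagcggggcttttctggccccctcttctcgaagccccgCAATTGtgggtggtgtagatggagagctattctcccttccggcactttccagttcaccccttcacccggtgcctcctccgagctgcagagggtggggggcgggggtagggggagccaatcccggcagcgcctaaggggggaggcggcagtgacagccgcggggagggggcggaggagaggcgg
In Kcna5 the M-CAT match at position -128 runs directly into the E-box match at -122, counted from the start site. A RefSeq window was matched for 7 of the 9 members. An E-box occurred in 5 of these 7 windows, against 66.2% of the 32851 mouse windows of the same length. The GATA-factor and M-CAT motifs occurred in 1 window each, Kcnj2 and Kcna5, against 22.6% and 12.6% of all windows. The MEF2 motif occurred in 0 of the 7, against 3.2% of all windows. A match is a description of letters in this window only.

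All 9 genes had a higher mean in deletion scars than in controls, by 1.67-fold (Kcnd3) to 4.02-fold (Kcnj3). The median log2 fold change was 1.05, against -0.02 over the 14771 genes tested, of which 47.6% had a positive value. No member passed an adjusted p of 0.05 in edgeR's quasi-likelihood test (0.0% of all genes did). The lowest edgeR adjusted p of any gene was 0.564. Genes with unlike unadjusted edgeR p share this value, such as Kcnd2 (0.00890) and Kcnip2 (0.0680). At an unadjusted p below 0.05, 6 of 9 members, all but Kcnd3, Kcnq1 and Kcnip2, were higher after deletion, beside 5.30% of the genes tested. This count was 2 without control replicate 2 (1.45% of genes) and 2 without control replicate 3 (1.89%), and it was 4 without deletion replicate 1, where 2.72% of genes reached it. With the batch as a term all 9 values were positive, against 48.0% of genes. The count at an unadjusted p below 0.05 was then 7 of 9 against 13.8%, and the lowest edgeR adjusted p was 0.0614 (Kcnd2). DESeq2 called 0 members at an adjusted p of 0.05 (0.224% of genes were called higher), with 7 at an unadjusted p below 0.05, where 7.40% of genes were higher. With the batch term DESeq2 called 7 members higher, all but Kcnd3 and Kcnq1, against 9.22% of genes. The adjusted p of Kcnd2 ranged from 2.96e-09 to 0.908 over 17 other settings. In 5 members each deletion library lay above each control, beside 8.87% of the genes tested. These 5 were Kcnj2, Kcnj3, Kcnj11, Kcnd2 and Kcnh2.

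**Figure D1:**
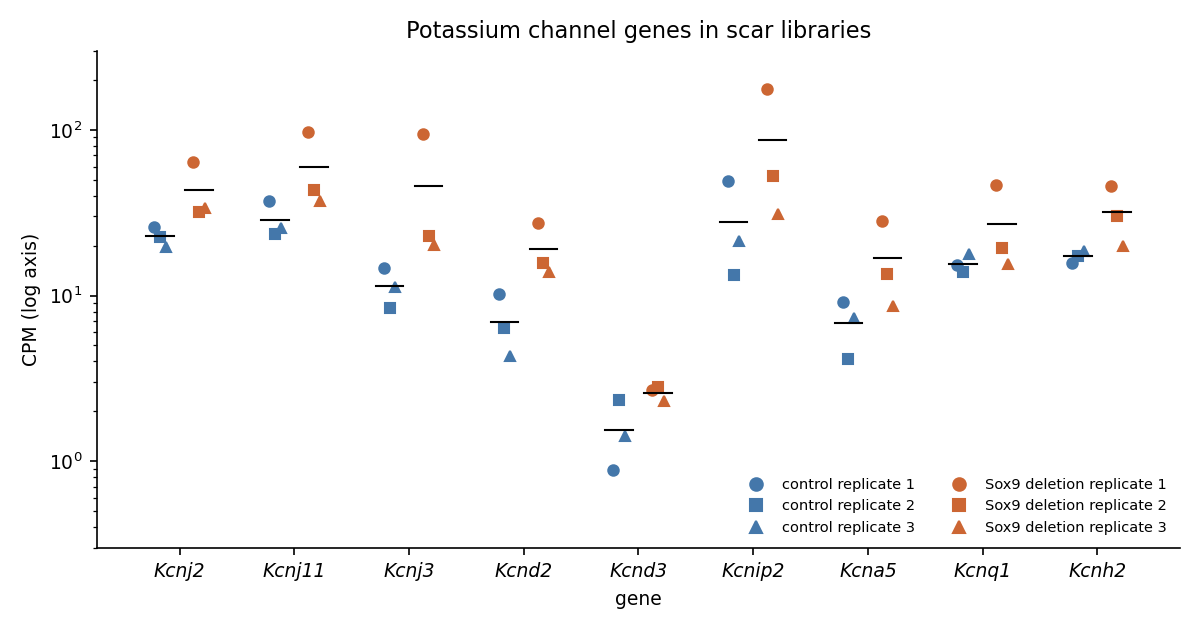
CPM of the 9 potassium channel genes (log axis) in each library, with controls in blue, deletion scars in orange, symbols for replicates and black bars for group means. Deletion replicate 1 (orange circles) was the highest library for 8 of the 9 genes, and Kcnd3 ran from 0.890 to 2.80 CPM.

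Libraries differed within each group. Deletion replicate 1 had the highest level of 8 members and deletion replicate 2 the highest level of Kcnd3. The lowest library was always a control, replicate 2 for 5 members and replicates 1 and 3 for 2 members each. Without deletion replicate 1 all 9 log2 fold changes were positive, against 45.1% of all genes, with a median of 0.59. The median was 0.70 within replicates 2 and 3 alone, and the replicate 1 pair gave 1.54.

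Kcnj2 encodes Kir2.1, the main pore-forming subunit of the inward rectifier current that sets the resting potential of ventricular myocytes. It lies on chromosome 11 from 111066164 to 111076825 (mm10). Its level was 26, 22.5 and 19.7 CPM in control replicates 1 to 3 and 64.3, 31.8 and 33.6 CPM in deletion replicates 1 to 3. Each deletion library was above each control library, and deletion replicate 1 stood well above the other deletion libraries. The log2 fold change was 0.92 ± 0.30 (SE; edgeR adjusted p = 0.564), 0.52 without deletion replicate 1 and 0.85 with the batch as a term. Kcnj12, which encodes the partner subunit Kir2.2, was at 19.9, 17.2 and 22.3 CPM against 34.5, 34.3 and 27.8 CPM, also without overlap (log2 fold change 0.70, edgeR adjusted p = 0.564). The log2 ratio of Kcnj2 to Kcnj12 within a library was 0.20 ± 0.32 (SD, n = 3) in controls and 0.35 ± 0.51 in deletion scars, with overlapping groups (exact permutation p = 0.8, two-sided).

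Kcnj11 encodes Kir6.2, the pore of the ATP-sensitive channel, which opens when cellular ATP falls. The gene spans 46097123 to 46100764 on chromosome 7. Levels were 37.1, 23.7 and 25.5 CPM in control replicates 1 to 3, against 97.4, 43.1 and 37.4 CPM in deletion replicates 1 to 3. The groups were separated narrowly, by deletion replicate 3 over control replicate 1. Deletion and control differed by a log2 fold change of 1.05 ± 0.40 (SE; edgeR adjusted p = 0.564), and without deletion replicate 1 it was 0.48. Abcc9 encodes SUR2, the sulfonylurea receptor of cardiac and vascular ATP-sensitive channels. It was at 138, 112 and 83.8 CPM against 469, 214 and 153 CPM, with no overlap. Within libraries, the log2 ratio of Kcnj11 to Abcc9 was -1.95 ± 0.27 in controls and -2.20 ± 0.15 in deletion scars (SD, n = 3 each; exact permutation p = 0.2). In every library Kcnj11 stayed within 0.202 to 0.305 times the CPM of Abcc9. These CPM are not corrected for length (merged exons of 3677 bases in Kcnj11 and 8373 in Abcc9), so they give no proportion of transcripts.

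Kcnj3 encodes Kir3.1, a subunit of the channel that acetylcholine opens through G proteins and that is best known from atrial and pacemaker cells. Kcnj3 spans 55435970 to 55598145 on chromosome 2. Control replicates 1 to 3 were at 14.7, 8.37 and 11.2 CPM and deletion replicates 1 to 3 at 94.8, 22.8 and 20.0 CPM. No library of either group crossed into the range of the other, and deletion replicate 1 was far above the rest. The log2 fold change of 2.01 ± 0.64 (SE; edgeR adjusted p = 0.564) had the largest size among the 9 members, and it was 0.91 without deletion replicate 1. With the batch term it was 1.63. Kcnj5 encodes Kir3.4, the partner of Kir3.1, and was at 30.3, 34.3 and 40.3 CPM against 83.4, 57.9 and 46.2 CPM. The log2 ratio of Kcnj3 to Kcnj5 ran from -2.02 to -1.04 in controls and from -1.34 to 0.18 in deletion scars, so the groups overlapped (exact permutation p = 0.3). Exons of Kcnj3 share a stretch of 1080 bases with Gm26794 on the opposite strand. The strand setting of the counting is not given in the sources used here, and reads of the pair cannot be told apart without it.

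Kcnd2 encodes Kv4.2, a pore subunit of the fast transient outward current of mouse ventricle. It lies on chromosome 6 from 21216109 to 21729805. Levels were 10.2, 6.32 and 4.31 CPM in control replicates 1 to 3, against 27.4, 15.6 and 13.8 CPM in deletion replicates 1 to 3. No control reached a deletion library. Its log2 fold change, 1.46 ± 0.40 (SE; edgeR adjusted p = 0.564), was 1.46 with the batch term, 1.42 for the replicate 1 pair alone and 1.46 for replicates 2 and 3. Leaving out deletion replicate 1 gave 1.10. Kcnd2 was thus alike in size within both batches, whereas the value of Kcnq1 was 1.60 for the first pair and 0.13 for the others; this contrast was not tested.

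Kcnd3 encodes Kv4.3, the other Kv4 subunit of the heart. The gene spans 105458816 to 105669209 on chromosome 3. Control replicates 1 to 3 were at 0.890, 2.34 and 1.42 CPM and deletion replicates 1 to 3 at 2.69, 2.80 and 2.29 CPM. The groups overlapped only by control replicate 2 over deletion replicate 3, and the control value of replicate 1 rests on 16 counts. This gave a log2 fold change of 0.72 ± 0.40 (SE; edgeR adjusted p = 0.565). For the Kv4 pair, the log2 ratio of Kcnd2 to Kcnd3 was 2.10 ± 1.11 in controls and 2.76 ± 0.47 in deletion scars (SD, n = 3 each; exact permutation p = 0.4). The deposited length of Kcnd3 is 1960 bases, against 9587 bases of merged exons in GENCODE vM21. The longest exonic stretch shared with Kcnd3os on the opposite strand is 165 bases.

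Kcnip2 encodes KChIP2, the calcium-binding subunit that assembles with Kv4 channels. Kcnip2 spans 45792346 to 45816063 on chromosome 19. Levels were 49.2, 13.3 and 21.3 CPM in control replicates 1 to 3, against 175, 52.7 and 31.2 CPM in deletion replicates 1 to 3. This was the widest span of the 9 genes, 13.2-fold from the lowest to the highest library, and control replicate 1 lay above deletion replicate 3. The log2 fold change was 1.63 ± 0.75 (SE; edgeR adjusted p = 0.564), and it was 0.59 without deletion replicate 1. The log2 ratio of Kcnip2 to the sum of Kcnd2 and Kcnd3 was 1.54 ± 0.82 in controls and 1.67 ± 0.80 in deletion scars (SD, n = 3 each; exact permutation p = 0.9). Both replicate 1 libraries were higher in this ratio (2.14 and 2.54) than the other 4 libraries (0.61 to 1.88).

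Kcna5 encodes Kv1.5, a subunit of the ultrarapid delayed rectifier. It lies on chromosome 6 from 126532551 to 126535555. Control replicates 1 to 3 were at 9.13, 4.13 and 7.32 CPM and deletion replicates 1 to 3 at 28.1, 13.5 and 8.69 CPM. Deletion replicate 3 lay just under control replicate 1, and the groups otherwise stood apart. Kcna5 had a log2 fold change of 1.29 ± 0.49 (SE; edgeR adjusted p = 0.564), and 0.70 without deletion replicate 1.

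Kcnq1 encodes the pore of the slow delayed rectifier and Kcnh2 (ERG) that of the rapid delayed rectifier, currents that are small in adult mouse ventricle and central in larger mammals. Kcnq1, on chromosome 7 from 143107254 to 143427042, was at 15.2, 13.8 and 17.7 CPM in control libraries, and 46.4, 19.4 and 15.5 CPM in deletion scars. Its difference rested on deletion replicate 1: the log2 fold change was 0.79 ± 0.41 (SE; edgeR adjusted p = 0.565) with this library and 0.15 without it. The longest exonic stretch that Kcnq1 shares with the opposite-strand transcript Kcnq1ot1 is 121 bases. Kcnh2, on chromosome 5 from 24319589 to 24329591, was at 15.7, 17.4 and 18.6 CPM in control libraries, and 45.8, 30.0 and 20.0 CPM in deletion scars. The controls were close together and all lay below the deletion libraries, deletion replicate 3 by the least. For Kcnh2 the log2 fold change was 0.88 ± 0.30 (SE; edgeR adjusted p = 0.564) and 0.52 without deletion replicate 1. The deposited interval of Kcnh2 is that of a shorter transcript, since the GENCODE gene reaches 24351604. Between these pores, the log2 ratio of Kcnh2 to Kcnq1 was 0.15 ± 0.16 in controls and 0.32 ± 0.33 in deletion scars (SD, n = 3 each; exact permutation p = 0.6).

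Kcne1, which encodes the beta subunit that slows KCNQ1 channels, was at 1.61, 2.38 and 3.48 CPM against 2.90, 1.70 and 2.01 CPM. The log2 ratio of Kcnq1 to Kcne1 was 2.66 ± 0.45 in controls and 3.42 ± 0.53 in deletion scars (SD, n = 3 each; exact permutation p = 0.2). Across the 7 ratios examined, the adjusted exact p was 0.7 to 0.9, and the groups overlapped in each. With 3 libraries against 3, the smallest p this test can give is 0.1.

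**Figure D2:**
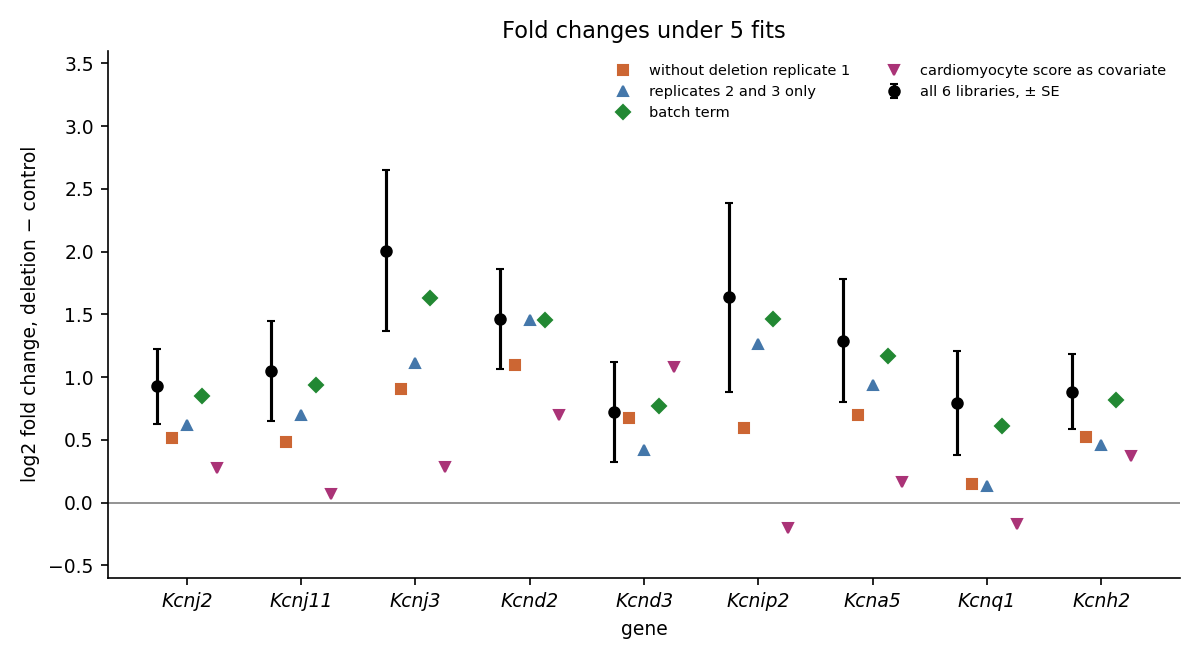
Log2 fold change of each gene (deletion minus control) in the fit of all 6 libraries with its SE (black) and in 4 other fits (coloured symbols). Values without deletion replicate 1 lay between 0.15 (Kcnq1) and 1.10 (Kcnd2); with the cardiomyocyte score as a covariate, Kcnip2 and Kcnq1 were at -0.20 and -0.17.

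Levels between genes were compared per kilobase of merged exons. In controls Kcnip2 and Kcnj11 were the most abundant, at 8.03 ± 5.42 and 7.81 ± 1.98 CPM per kb, and their ranges overlapped. Kcnip2 was at 14.2 CPM per kb in control replicate 1 and at 3.82 and 6.13 CPM per kb in replicates 2 and 3; without replicate 1 its mean was 4.97, below Kcnj11 at 6.68 CPM per kb. Kcnj2 followed at 4.18 ± 0.58 CPM per kb, below every control value of Kcnj11 and overlapping the range of Kcnip2. Kcnj2, Kcnq1 (3.81 ± 0.48 CPM per kb) and Kcnh2 (3.56 ± 0.30 CPM per kb) overlapped as neighbours. Kcnh2 lay just above Kcna5 (2.40 ± 0.88 CPM per kb), which in turn overlapped Kcnj3 (2.19 ± 0.61 CPM per kb), as Kcnj3 did Kcnd2 (1.35 ± 0.58 CPM per kb). Kcnd3 was the least abundant, at 0.162 ± 0.0765 CPM per kb, below every value of Kcnd2. In deletion scars the order of means was Kcnip2 (24.8 ± 22.3 CPM per kb), Kcnj11 (16.1 ± 9.01), Kcnj3 (8.80 ± 8.13), Kcnj2 (7.94 ± 3.35), Kcnq1 (6.62 ± 4.11), Kcnh2 (6.59 ± 2.68), Kcna5 (5.86 ± 3.53), Kcnd2 (3.68 ± 1.44) and Kcnd3 (0.271 ± 0.0277). With the deposited gene lengths, Kcnip2 and Kcnj11 stayed in the first and second place and Kcnd3 in the last, Kcnd3 at 0.792 and Kcnd2 at 1.53 CPM per kb in controls, while 4 genes between them changed place.

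**Figure D3:**
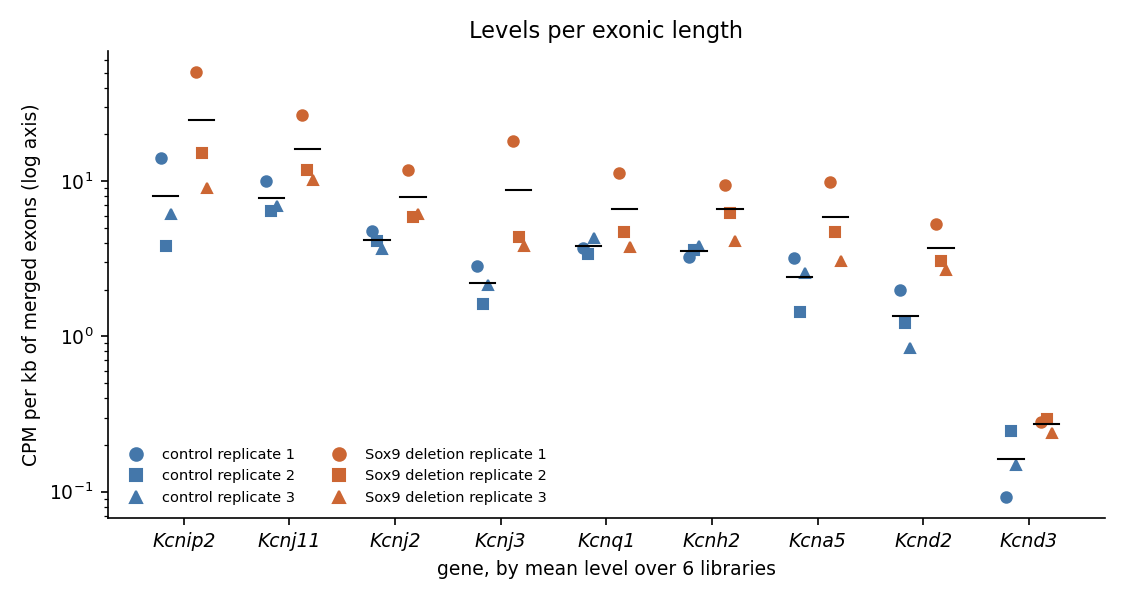
CPM per kilobase of merged exons (log axis) in each library, genes ordered by their mean over 6 libraries; blue symbols are controls, orange symbols deletion scars, black bars group means. Kcnip2 and Kcnj11 had the highest means and Kcnd3 the lowest.

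Markers of heart muscle were higher on average in deletion scars as well, and highest in deletion replicate 1. The 16 cardiomyocyte markers summed to 79757, 45080 and 50073 CPM in control libraries, and 168194, 80154 and 76334 CPM in deletion scars, so control replicate 1 lay between deletion replicates 2 and 3. All 16 had positive log2 fold changes, with a median of 1.01, and Myh6, the alpha myosin heavy chain, was at 14020 to 23325 CPM in control libraries, and 21118 to 53109 CPM in deletion scars. Tnnt2, cardiac troponin T, was at 7922 to 14750 against 12396 to 16603 CPM. The mean centred log2 level of these markers was 0.11, -0.87 and -0.65 in controls and 1.29, 0.15 and -0.03 in deletion scars. The mean over the 9 channel genes was -0.28, -0.73 and -0.61 in controls and 1.37, 0.30 and -0.04 in deletion scars. Deletion replicate 1 was highest and control replicate 2 lowest in both measures. In scar tissue made of several cell types, more muscle cells and more channel RNA per muscle cell cannot be told apart.

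**Figure D4:**
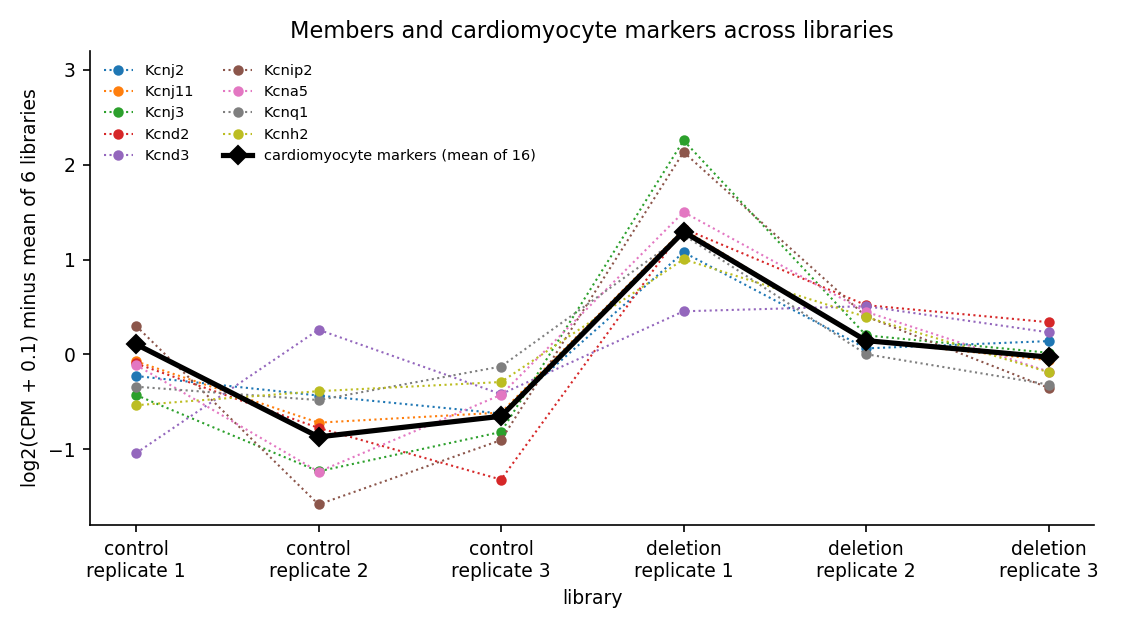
Centred log2(CPM + 0.1) of the 9 genes (dotted, coloured) and mean of 16 cardiomyocyte markers (black) in the 6 libraries. The marker mean was 1.29 in deletion replicate 1 and -0.87 in control replicate 2; Kcnd3 was the member farthest from the members' mean profile.

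Set against these markers within each library, the groups overlapped in 8 of the 9 members. The log2 level of Kcnj11 minus the marker mean was -6.02 ± 0.17 in controls and -6.02 ± 0.03 in deletion scars (SD, n = 3 each; exact permutation p = 0.9). That of Kcnj2 was -6.33 ± 0.39 against -6.42 ± 0.20 (exact permutation p = 0.8). Kcnj3 was the 1 member whose groups did not overlap on this scale, at -7.53, -7.36 and -7.16 in controls and -6.03, -6.94 and -6.95 in deletion scars. The difference was 0.71 with an exact permutation p of 0.1, the smallest this design can give. It was 1 of 9 such comparisons, with an adjusted exact permutation p of 0.72. No share over all genes was worked out on this scale. Kcnip2 and Kcnd2 differed by 0.51 and 0.52 with overlapping groups, and the other 6 members by -0.31 (Kcnq1) to 0.24 (Kcna5). With the marker mean as a covariate in edgeR, the median of the members was 0.27, 7 of 9 values were positive against 49.2% of all genes, and 0 members had an unadjusted p below 0.05 with a higher level after deletion, beside 4.12% of the genes tested. Kcnd3 (1.08) and Kcnd2 (0.70) had the highest values there.

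Markers of other cells in which some of these channels are known were also measured. Of the 7 atrial markers 4 were analysed, with summed levels of 5716 to 11189 CPM in control libraries, and 3795 to 8180 CPM in deletion scars, mostly Nppa, which stressed ventricle also makes, with Dkk3 next. The sum was lowest in deletion replicate 1, and it mostly follows Nppa. Of the 4 genes, 2 had positive and 2 negative log2 fold changes. In deletion scars 1 of the 4 was higher without overlap, beside 8.87% of the genes tested. The 8 of 9 conduction system markers analysed (Slit2 and Gja5 the most abundant) summed to 131 CPM in each control and to 97.2 to 109.5 CPM in deletion scars (Hcn4, described below, is among them), and 5 of 10 neuron markers (Uchl1 and Stmn2 the most abundant) to 50.0 to 84.3 against 36.1 to 63.1 CPM. Fibroblast markers (10 of 10) summed to 13683 to 16198 CPM in control libraries, and 5911 to 14685 CPM in deletion scars, and smooth muscle markers (7 of 7) to 1276 to 1720 against 749.8 to 1348 CPM. Pericyte (6 of 6) and endothelial markers (9 of 9) summed to 592 to 849 and 744 to 883 CPM in control libraries, and to 672 to 1242 and 740 to 1395 CPM in deletion scars. Col3a1 and Dcn led the fibroblast markers, Acta2 and Myh11 those of smooth muscle, Rgs5 and Notch3 those of pericytes and Cdh5 and Pecam1 those of endothelium. Lyz2 and Mrc1 led those of macrophages, Cd4 and Cd3g those of lymphoid cells, and Mal those of Schwann cells. Postn, a matrix gene of activated fibroblasts, was at 849.6 to 1578 CPM in controls and 552 to 1195 CPM in deletion scars, overlapping. The lowest fibroblast sum and the highest endothelial and pericyte sums were in deletion replicate 1. Macrophage (9 of 9) and T and natural killer cell markers (8 of 8) ranged from 1050 to 2281 and 14.6 to 127 CPM in control libraries, and from 679 to 1345 and 8.76 to 37.3 CPM in deletion scars. Schwann cell (6 of 8) and skeletal muscle markers (9 of 9, including Ckm and Acta1, which heart also expresses) ranged from 38.3 to 59.4 and 284 to 1164 CPM in control libraries, and from 32.7 to 61.1 and 645 to 4385 CPM in deletion scars. The skeletal muscle sum was mostly Ckm and Acta1: 6 of the 9 genes had negative and 3 positive log2 fold changes, and the median was -0.66. Myh2, Tnnt3 and Pvalb were lower without overlap and 1 gene was higher without overlap, beside 8.60% and 8.87% of the genes tested. All 10 fibroblast, 9 macrophage and 8 T and natural killer cell markers had negative log2 fold changes, with medians of -0.45, -0.53 and -1.11. Without deletion replicate 1 these medians were -0.17, -0.31 and -0.72. Of the 7 smooth muscle, 6 pericyte and 9 endothelial markers, 1, 3 and 6 were positive, against 47.6% of all genes tested. The part of these cell types in the channel levels was not tested.

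Other genes of potassium, pacemaker and sodium handling were mixed in direction. Of 88 listed genes, 59 were tested, 31 with positive and 28 with negative log2 fold changes and a median of 0.12. None passed an adjusted p of 0.05 in edgeR. DESeq2 also called none, and with the batch term it called 13 higher and 5 lower, 18 of 59, where 13.5% of all genes were called in either direction. At an unadjusted p below 0.05, 14 were higher and 3 lower after deletion, beside 5.30% and 3.04% of the genes tested. Without overlap between the groups were 13 higher and 8 lower genes, beside 8.87% and 8.60%. The difference between these genes and the 9 members was not tested.

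Among auxiliary subunits (13 of 23 tested, 7 positive), Abcc9 is given above and Kcng2, a silent Kv subunit, was at 39.6, 36.9 and 39.9 CPM against 68.7, 56.5 and 50.6 CPM. The anchoring protein gene Akap9 differed little, at 98.0 ± 6.76 against 106 ± 4.26 CPM. Of the other inward rectifiers (6 of 11 tested, 3 positive), Kcnj15 was at 51.4 ± 21.6 against 33.9 ± 22.1 CPM, lowest in deletion replicate 1. Of the other voltage-gated channels (13 of 20 tested, 8 positive), Kcna7 was at 4.16 ± 1.47 against 9.92 ± 4.85 CPM with no overlap. Kcnq5 overlapped between the groups, at 3.83 ± 0.61 against 4.90 ± 2.42 CPM.

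Of the tandem-pore-domain channels (5 of 10 tested, 2 positive), Kcnk3 (TASK-1) was at 136, 87.5 and 90.3 CPM against 256, 152 and 139 CPM. Kcnk6 was the other way round, at 16.5 ± 2.57 against 12 ± 2.37 CPM with no overlap, and Kcnk2 (TREK-1) was at 3.56 ± 2.33 against 5.17 ± 4.15 CPM. Of the calcium- and sodium-activated channels (7 of 8 tested, 3 positive), Kcnn2, a small-conductance channel, was at 2.80 ± 0.43 against 8.71 ± 5.96 CPM, Kcnn1 at 4.71 ± 1.31 against 8.20 ± 4.48 CPM and Kcnt2 at 18.7 ± 5.88 against 17.1 ± 6.07 CPM. The 3 pacemaker channel genes tested had positive values, Hcn2 at 7.49 ± 3.66 against 11.6 ± 5.36 CPM and Hcn4 at 0.518 ± 0.0756 against 2.24 ± 2.39 CPM. Hcn4 was at 4.96 CPM in deletion replicate 1 and at most 1.29 CPM elsewhere.

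Of the 4 sodium channel beta subunit genes, 1 had a positive and 3 a negative log2 fold change, with a median of -0.26. Scn4b, which was positive, was at 0.723, 0.841 and 1.42 CPM in control libraries, and 64.2, 2.62 and 2.78 CPM in deletion scars. The log2 fold change of 4.48 ± 1.41 (SE; edgeR adjusted p = 0.564) was 1.40 without deletion replicate 1 and -0.04 with the cardiomyocyte covariate. Scn2b overlapped between groups, at 6.60 ± 3.29 against 4.92 ± 2.21 CPM. Of the sodium-potassium pump genes (8 of 8 tested, 4 positive), the beta 1 subunit gene Atp1b1 overlapped between groups, at 528 ± 71.9 against 627 ± 81.3 CPM.

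**Figure D5:**
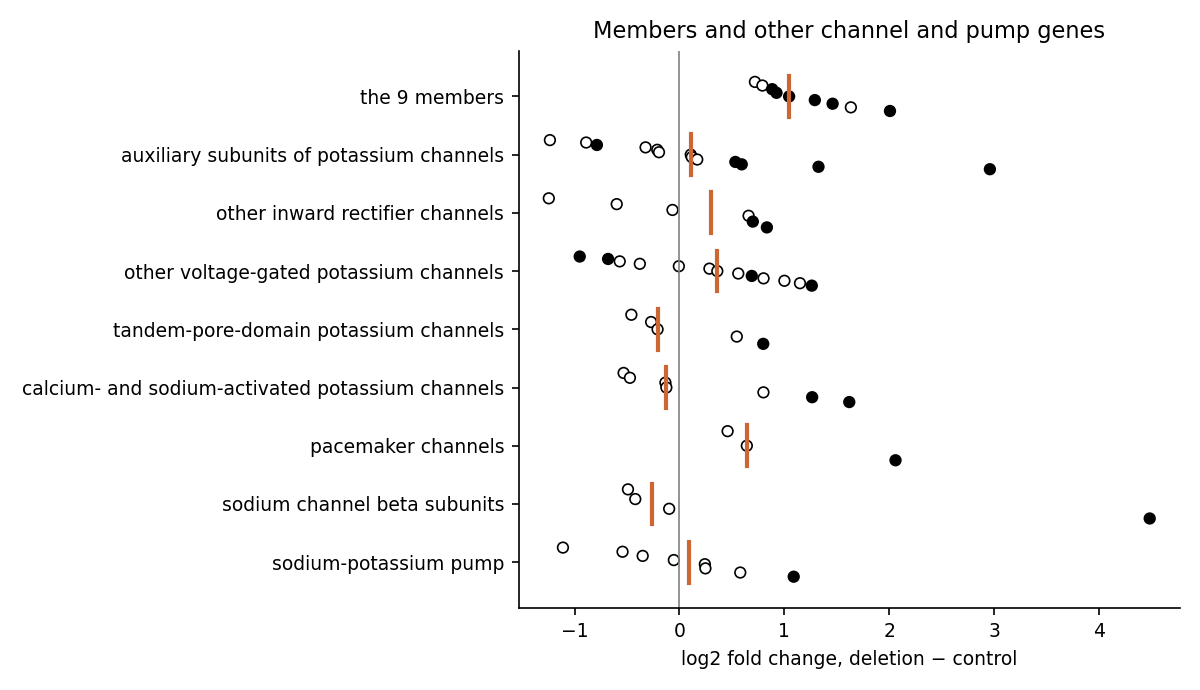
Log2 fold change (deletion minus control) of the 9 members and of each list of other channel and pump genes; filled circles have an unadjusted edgeR p below 0.05 and orange bars are list medians. The member median was 1.05, and the point at 4.48 is Scn4b.

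The genes nearest to the mean profile of the 9 members were Oxld1, Acads, Ndufa8, Cpeb3 and Ndufs7. Their root mean square differences from it over the 6 libraries were 0.0759 to 0.0851 on the log2 scale. Ndufa8 and Ndufs7 encode subunits of respiratory complex I, and Acads an enzyme of short-chain fatty acid oxidation. Acads was at 30.9, 19.0 and 22.7 CPM in control libraries, and 88.6, 44.3 and 34.9 CPM in deletion scars. Among the members Kcnj11 was the nearest to the mean profile (0.109), and Kcnip2 (0.553) and Kcnd3 (0.652) were the farthest. As for overlapping genes, Abcc9, Akap9, Atp1b1, Kcng2, Kcnj15, Kcnk2, Kcnk3, Kcnn1, Kcnn2, Kcnq5 and Kcnt2 also share exonic bases with an opposite-strand gene. So do the marker genes Ckm, Gja5, Myh2, Myh6, Notch3, Nppa and Uchl1. Their counts carry the same kind of uncertainty as those of Kcnj3, Kcnd3 and Kcnq1, over shared stretches of differing length. The authors' deposited table gave positive log2 fold changes for all 9 members, from 0.62 for Kcnq1 to 1.64 for Kcnj3, and -0.55 for Sox9.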

How the data were processed

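The table the authors deposited holds untransformed counts (per the file headers) with their own TMM signal values, group means and log2 fold changes, and a score (NOiseqBio, per the labels) that was not used. The deposited gene lengths (a column of other values, in bases) were used for 1 comparison. The submitters' processing notes list Trim Galore, STAR, deepTools and mm10; how reads were counted, and whether strand was used, is not given in the sources used here. Per the labels' protocols, ScriptSeq v2 libraries started from 100 ng of total RNA; the series text speaks of polyadenylated RNA.

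Counts were tested with edgeR 4.0.16 in R 4.3.3 (quasi-likelihood F test, robust fit, TMM factors, filterByExpr, genotype as the only term, 4 residual degrees of freedom), with Benjamini-Hochberg adjustment over 14771 genes. The code was run on simulated counts with the same dispersion for every gene, no batch and no outlying library. That run therefore does not show the power of the test in these data. The SE is the log2 fold change divided by the root of F. DESeq2 1.42.0 was an alternative. Within-library log2 values used CPM + 0.1 and exact two-sided permutation tests over libraries (scipy 1.17.1). Merged exons and overlaps came from GENCODE vM21, promoters from RefSeq.

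The members and lists were chosen with earlier results of these data known. The text names all members, Sox9, Postn, the 3 genes with the highest mean CPM of each channel list and 2 of each marker list, and the 5 nearest profiles, except a few genes that are not reported here; Kcne1 was named as a ratio partner, Myh2, Tnnt3 and Pvalb after their values were seen, and the members and libraries singled out were chosen after their values were seen.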

Additional observations from a re-analysis of the deposited data

How the results depend on the processing

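All 9 members kept positive log2 fold changes in 17 of 18 other settings; with the cardiomyocyte score as a covariate 7 did, and Kcnq1 and Kcnip2 were at -0.17 and -0.20. The cause was not tested. Their median was 0.27 there, and 0.59 to 1.29 when each library was left out. The number of members with an unadjusted p below 0.05 and a higher level in deletion scars was 0 with that covariate and 2 to 8 when each library was left out, where the share of all genes also moved, from 1.45% to 7.82%. The number of members with groups that did not overlap was 5 to 9, with 11.2% to 22.5% of all genes; it was 7 without control replicate 1 (22.5%) and 9 without deletion replicate 3 (15.2%). With the batch term, edgeR called 1 gene and 0 members. DESeq2 called 52 genes and 0 members, and with the batch term 1920 genes, 7 members (all but Kcnd3 and Kcnq1) and 18 related channel genes.

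With library totals alone the median of all genes moved from -0.02 to -0.15 and that of the related channel genes from 0.12 to -0.0221, while the member median was 0.87. The related median was 0.0617 with the covariate and 0.33 in the replicate 1 pair. Of the 9 genes ranked per length, 5 kept their place with the longest transcript and 5 with the deposited length, which was added after the data were seen, and 6 to 9 did when each library was left out.

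Ratios between genes rest on few libraries. The count of subunit ratios without overlap, 0 of 7, was 0 to 3 when each library was left out and 4 in replicates 2 and 3 alone, where 2 libraries face 2. The count of members without overlap relative to cardiomyocyte markers, 1 of 9, was 1 to 4 and 5. This count takes in both directions: in replicates 2 and 3 alone, Kcnd2 was at 0.66 and Kcnq1 at -0.67, each without overlap. No share over all genes was worked out on these scales. In CPM, 25.7% of all genes were higher without overlap in replicates 2 and 3 alone. No subunit ratio or level relative to the markers could be called at 0.05. The exact permutation test cannot go below p = 0.1 with 3 libraries against 3. Of the values of these ratios and relative levels, 22 changed sign. Kcnip2 to Kcnd2 plus Kcnd3 ran from -0.34 (without control replicate 2) to 0.48 (without deletion replicate 3) and was at -0.31 without deletion replicate 1 and -0.0124 in replicates 2 and 3; Kcnj2 to Kcnj12 was at -0.03 without control replicate 3, -0.12 without deletion replicate 1 and -0.0233 in replicates 2 and 3. In the replicate 1 pair, Kcnd2 to Kcnd3 was at -0.0737 and Kcnh2 to Kcnq1 at -0.0610. Relative to the markers, values that turned positive without control replicate 2 were 0.11 (Kcnj2), 0.0683 (Kcnj11), 0.39 (Kcnd3) and 0.0744 (Kcnh2). Without control replicate 1 these genes kept their negative sign, at -0.28 (Kcnj2), -0.0970 (Kcnj11), -0.75 (Kcnd3) and -0.49 (Kcnh2). Other changes of sign were, without control replicate 3, 0.0128 (Kcnj11) and 0.0141 (Kcnh2). Without deletion replicate 1 they were 0.000184 (Kcnj2) and 0.24 (Kcnd3), and without deletion replicate 3 0.00962 (Kcnj11). In the replicate 1 pair they were 0.12 (Kcnj2), 0.21 (Kcnj11), 0.31 (Kcnd3), 0.41 (Kcnq1) and 0.35 (Kcnh2).

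Same-numbered libraries deviated from their group means with correlations across genes of 0.49, 0.02 and 0.18, so the numbers were not taken to pair the samples. With the replicate number as a block, edgeR called 0 genes, 2560 had an unadjusted p below 0.05, against 1232 without it, 7 of 9 members were among those higher (10.9% of genes), and the member median was 0.94. Not every library correlated best with its own number. Counts of 16 to 3319 per member and library limit Kcnd3 the most.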
